A study of Homo sapiens with 51 samples.

Results

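SUV39H1 and SUV39H2 were knocked down in HMLE cells, an immortalised line of human mammary epithelial cells, and total RNA was read at day 4. The libraries were chosen by their column names in the deposited expression table: 3 knockdown and 3 scramble libraries at day 4, which makes 6 of the 51 libraries of the series, with every listed gene kept. The cells are labelled wild type. They had received either a scrambled siRNA or DsiRNA duplexes against both genes for 2 days, and after a wash they grew for 2 further days in fresh medium. All groups share the immortalising genes of the line and the same mixed, serum-containing medium. A further 12 libraries serve for comparison: the same line and duplexes at day 2, after 2 days with the duplexes, and HMLE-TWIST1 cells, a mesenchymal derivative that carries the transcription factor TWIST1, at day 4. Nothing in the labels says that the 3 libraries of a group came from separate cultures, so p-values here measure the spread between these libraries, which may be technical. The only control is a scramble siRNA, so loss of the enzymes and any other action of the targeting duplexes cannot be told apart.

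SUV39H1 and SUV39H2 place trimethyl marks on lysine 9 of histone H3. HP1 proteins bind that mark, and together they keep satellite repeats and many retroelements silent in heterochromatin. Cells detect double-stranded RNA and cytosolic DNA with sensors such as RIG-I, MDA5 and ZBP1, and these lead to interferons, to transcription factors such as STAT2 and IRF9, and to a large set of antiviral genes. HMLE cells have a basal epithelial character and can enter a squamous (keratinising) differentiation program or an epithelial to mesenchymal transition.

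The 6 libraries held 11172354 to 13577320 reads in listed genes. MALAT1, a nuclear long RNA, took 5.71 to 11.6% of the scramble and 6.86 to 9.32% of the knockdown reads, with its highest share in scramble replicate 1. Libraries correlated at 0.988 to 0.993 within a group and at 0.958 to 0.965 between groups. All 8 mammary epithelial markers were present, with a sum of 7337 to 8339 CPM in scramble and 8706 to 9707 CPM in knockdown libraries. Of 5 leukocyte markers only CD68 was tested, at 0.11 to 0.73 CPM in scramble and 0.75 to 3.48 CPM in knockdown libraries, a rise lost without scramble replicate 1 or 3 or knockdown replicate 2 or 3, and its part in the interferon result was not tested. ITGAM was below the filter on reads, and PTPRC, CD3E and LYZ were not analysed here. Endothelial markers tested were KDR, at 0 to 0.26 CPM, and VWF, and their sum was 7.25 to 7.80 CPM in scramble and 2.35 to 3.67 CPM in knockdown libraries. VWF fell (log2 -1.37, adjusted p = 0.00351, limma), a call lost with a prior count of 0.5. The 6 fibroblast markers summed to 102 to 124 CPM against 125 to 146 CPM, and 1 of them, PDGFRB, rose (log2 1.10 ± 0.11, adjusted p = 1.13e-06, limma). PDGFRB was low, at 0.80, 0.65 and 0.53 CPM against 1.42, 1.57 and 1.76 CPM. That fit is shared with HMLE-TWIST1 libraries, where its mean scramble level was 265 CPM. In the fit of the 12 HMLE libraries PDGFRB gave log2 1.10 ± 0.34 (adjusted p = 0.0194, limma). The adipocyte markers, nearly all FABP4, summed to 352 to 417 CPM against 205 to 257 CPM without overlap, with 0 of 2 passing in the fit of both lines. In the wider adipocyte list 1 gene was lower in the fit of 6 libraries, with the replicate block, with precision weights and with a prior count of 5. In RNA from whole cultures a change in the number of cells that express a gene and a change in RNA per cell cannot be told apart, which holds for every value here.

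The targeted genes had few reads. SUV39H1 had 39, 49 and 20 reads in the scramble libraries, which is 3.45, 3.98 and 2.10 CPM (read counts scaled to the size of the library), and 14, 15 and 29 reads in the knockdown libraries, or 1.17, 1.31 and 2.55 CPM. Knockdown replicate 3 lay above scramble replicate 3, so the groups overlapped. The log2 fold change was -0.90 ± 0.26 (SE; adjusted p = 0.0143, limma over all genes), and an exact permutation test over the 6 libraries gave a two-sided p of 0.2, where 0.1 is the smallest possible. The adjusted p was 0.0537 without scramble replicate 1, 0.0649 without scramble replicate 2, 0.0736 without knockdown replicate 1, 0.0658 without knockdown replicate 2 and 0.0517 when only the 6 libraries were fitted. SUV39H2 had 81, 70 and 60 reads in the scramble libraries and 50, 54 and 51 in the knockdown libraries, with no overlap. It fell by 0.50 ± 0.11 on the log2 scale (adjusted p = 0.00209, and 0.0513 in the fit of 6 libraries), and the exact permutation p was 0.1. At day 4 the knockdown libraries thus held 52.6% of the SUV39H1 and 69.6% of the SUV39H2 level of the scramble libraries. In HMLE at day 2 SUV39H1 fell by 1.26 on the log2 scale (adjusted p = 0.00234, limma). SUV39H2 did not pass there (log2 -0.376, adjusted p = 0.0701, limma). In HMLE-TWIST1 at day 4 both fell (log2 -1.03 and -0.805), SUV39H2 from a mean of 39.8 to 22.7 CPM. Differences of these effects between days or lines did not pass for either gene.

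Across the transcriptome, 2107 genes rose (11.7% of 17985 tested) and 2593 fell (14.4%). A gene was called when the adjusted p of a limma fit, Benjamini-Hochberg over all genes tested, was below 0.05. Rises reached further than falls: 145 genes rose by at least 2 on the log2 scale and 20 by at least 5, whereas 32 fell by at least 2 and 0 by at least 5. The knockdown and scramble libraries did not overlap for 6523 genes (36.3%). The median log2 fold change over all genes tested was -0.003. Each list count below at day 4 in HMLE stands beside these shares of 11.7% higher, 14.4% lower and 36.3% without overlap. These shares cover all genes tested, also those that passed the filter on reads only through HMLE-TWIST1 libraries. Within the 6 HMLE day 4 libraries 15739 genes passed that filter, of which 1986 rose and 2523 fell.

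**Figure D1:**
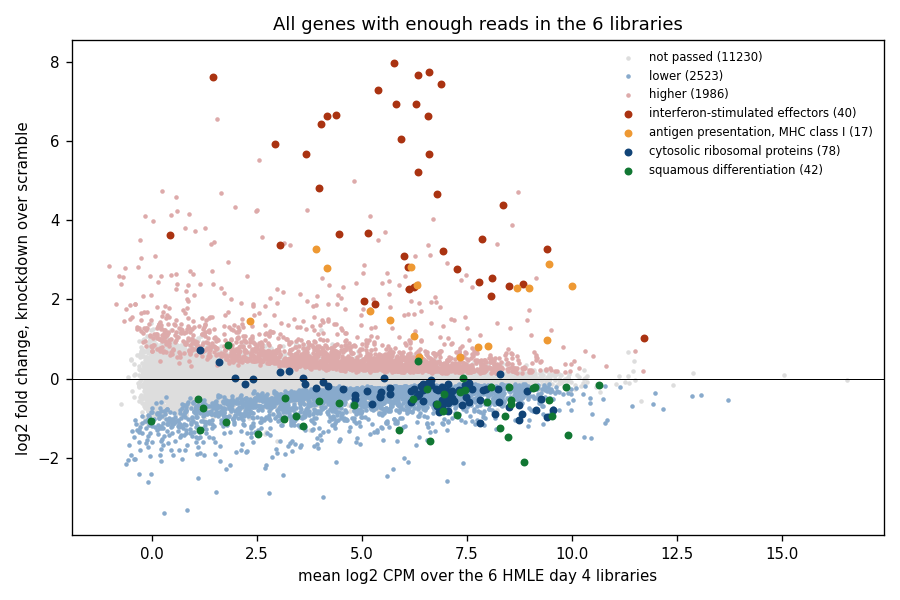
Log2 fold change of knockdown over scramble (vertical axis) against the mean log2 CPM over the 6 HMLE day 4 libraries (horizontal axis), 1 point per gene, for the 15739 genes with enough reads in these 6 libraries. Pale red points rose (1986), pale blue points fell (2523), grey points did not pass, and 4 gene lists are drawn in full colour. The interferon-stimulated effectors that rose lie between 1.02 and 7.99, and the ribosomal protein genes between -1.12 and 0.72.

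The 12 largest rises, among called genes whose groups lay apart and whose mean level reached 3 log2 CPM, were all in genes known to be induced by interferon. IFIT1, which binds viral RNA lacking normal cap methylation, had 4.87, 2.19 and 3.26 CPM in the scramble libraries and 726, 951 and 953 CPM in the knockdown libraries, a log2 fold change of 7.99 ± 0.25 (adjusted p = 3.06e-08). IFI6, a membrane protein with antiviral activity, stood at 7.09, 6.82 and 5.57 CPM against 1314, 1514 and 1452 CPM (log2 7.75 ± 0.09, adjusted p = 7.99e-19). IFI44L was at 9.74, 8.53 and 8.30 CPM against 1497, 1538 and 1652 CPM (log2 7.44 ± 0.07, adjusted p = 1.07e-20). In all 3 genes every knockdown library lay far above every scramble library.

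MX2, IFI27, OAS2, BST2, ISG15, RSAD2, IFIT3, XAF1 and IFIT2 followed, with log2 fold changes of 6.07 to 7.67. They include a dynamin-like GTPase (MX2), a synthetase of the second messenger that activates RNase L (OAS2), tetherin (BST2), a ubiquitin-like modifier (ISG15) and viperin (RSAD2). ISG15 had 2.39, 1.54 and 1.89 CPM in the scramble and 208, 218 and 207 CPM in the knockdown libraries. The rule that chose the 12 required groups without overlap.

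**Figure D2:**
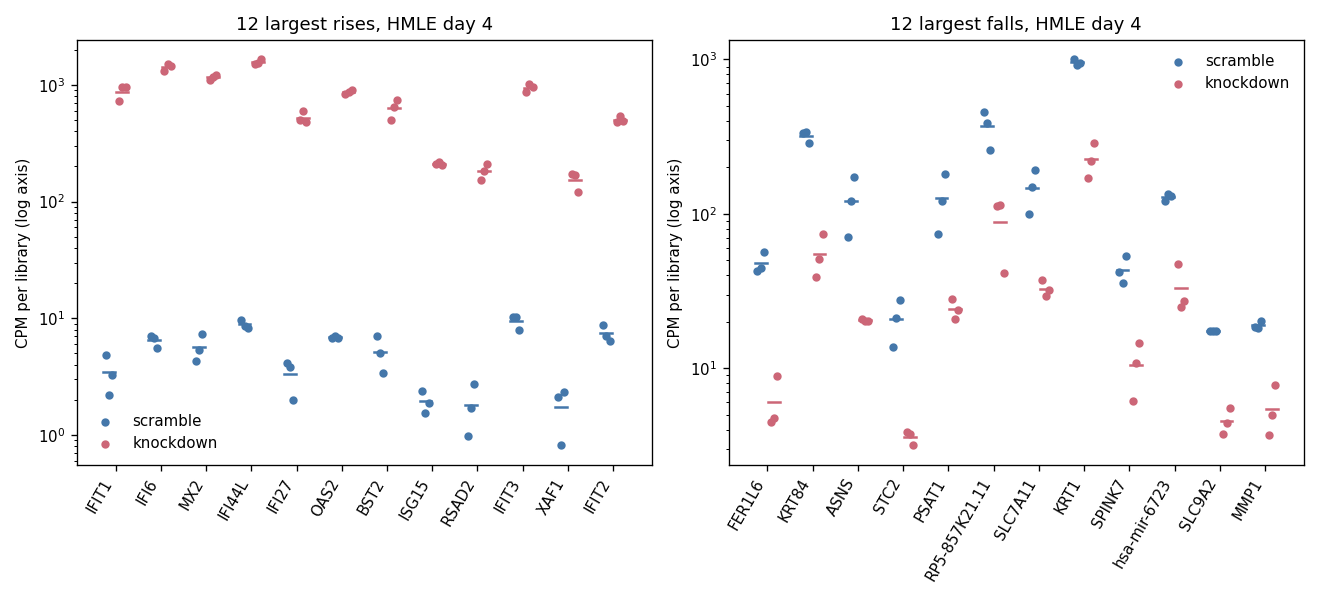
CPM on a log axis in each of the 6 HMLE day 4 libraries for the 12 genes with the largest rises (left) and the 12 with the largest falls (right). Points are libraries, short bars are group means, blue is scramble and red is knockdown. Among the rises the highest scramble point is 10.2 CPM (IFIT3) and the lowest knockdown point 121 CPM (XAF1), and among the falls the 3 scramble points of ASNS and PSAT1 spread more than those of KRT1.

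The bases before the start of these genes often held the core of the interferon-stimulated response element, a site bound by a complex that holds STAT2 and IRF9. The letters searched were GAAA, a pair of unspecified bases and GAAA, on both strands, where matches may overlap, in the 250 bases before the first start listed for a symbol in the RefSeq promoter table (GRCh38.p14). Of the 12 largest rises 9 had a start in the table, and 7 of these held the letters. Stretches of 6 of these promoters are shown, since these genes are among the largest rises and hold the letters, each 5′ to 3′ on the gene's own strand and with capitals on the matching letters, which read as the reverse complement where the match is on the other strand.
IFIT1: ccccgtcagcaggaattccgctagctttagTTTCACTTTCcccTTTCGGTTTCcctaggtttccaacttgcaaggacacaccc
IFI6: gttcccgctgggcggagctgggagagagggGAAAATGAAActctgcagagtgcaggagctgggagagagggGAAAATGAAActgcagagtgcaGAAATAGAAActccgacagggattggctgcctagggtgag
IFI44L: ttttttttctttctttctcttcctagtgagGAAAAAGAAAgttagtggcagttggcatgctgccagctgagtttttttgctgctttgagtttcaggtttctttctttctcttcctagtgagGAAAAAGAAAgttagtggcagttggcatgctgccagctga
IFI27: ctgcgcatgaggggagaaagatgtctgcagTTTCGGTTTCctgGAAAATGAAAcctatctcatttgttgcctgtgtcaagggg
BST2: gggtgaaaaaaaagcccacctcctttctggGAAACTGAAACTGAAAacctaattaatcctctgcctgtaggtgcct
ISG15: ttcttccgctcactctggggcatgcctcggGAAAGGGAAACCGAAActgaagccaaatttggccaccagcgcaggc
These windows lie at chr10:89392477-89392559 (plus strand), chr1:27672246-27672378 (minus strand), chr1:78620254-78620414 (plus strand), chr14:94110598-94110680 (plus strand), chr19:17405715-17405790 (minus strand) and chr1:1013354-1013429 (plus strand). IFI6 held 3 matches and each of the other 5 held 2. The letters stood in 3.07% of the promoters of all 27305 symbols listed. Among genes that rose by at least 2 on the log2 scale it was 33 of the 81 with a start (40.7%), among all genes that rose 89 of 1418 (6.28%), among genes that fell 19 of 1692 (1.12%) and among genes that did not pass 148 of 7350 (2.01%). By list, the letters stood in 22 of 33 promoters of interferon-stimulated effectors and 7 of 14 of antigen presentation genes. A match describes the sequence only, and the table holds a start for 10460 of the 17985 genes tested.

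As a group, 40 of the 41 interferon-stimulated effector genes rose and 0 fell, with a median log2 fold change of 3.69. Their summed level was 3178 to 4169 CPM in the scramble libraries and 24450 to 26540 CPM in the knockdown libraries. The exception was CMPK2, singled out after its values were seen, which had 0 reads in all 6 libraries. The rise within the group ran from 1.02 for SAMD9 to 7.99 for IFIT1. SAMD9, a restriction factor of poxviruses, was already at 2683, 1756 and 2735 CPM in the scramble libraries and reached 4396, 4764 and 5099 CPM in the knockdown libraries. Per length, SAMD9 was also above IFIT1 in the scramble libraries, at a mean of 347 RPKM (CPM per kilobase of gene length) against 1.16 RPKM. OAS3, another of the synthetases, rose by 4.39 ± 0.06 and PARP14, an ADP-ribosyltransferase, by 3.26 ± 0.05 on the log2 scale.

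Sensors of foreign nucleic acid rose with them, 13 of 16, with a median log2 fold change of 2.03. DDX58, which encodes RIG-I, had 25.6, 22.7 and 28.3 CPM in the scramble and 375, 419 and 464 CPM in the knockdown libraries (log2 4.03 ± 0.08, adjusted p = 7.17e-17). TLR3, the endosomal receptor of double-stranded RNA, went from 10.1, 10.6 and 10.1 CPM to 48.3, 50.9 and 57.8 CPM (log2 2.33 ± 0.08). IFI16, a DNA sensor, rose by 2.62 and ADAR, which edits double-stranded RNA, by 1.73 on the log2 scale. In each of these the groups lay apart. The 1 sensor gene that fell was MAVS, the adaptor downstream of RIG-I and MDA5, by 0.34 ± 0.06 (adjusted p = 0.00194, singled out after its values were seen).

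Of 18 genes for interferon receptors and the factors they signal through, 10 rose and 1 fell, with a median of 0.47. IRF7, which amplifies interferon transcription, rose from 11.1, 13.7 and 11.98 CPM to 139, 135 and 143 CPM (log2 3.49 ± 0.11). STAT2 rose by 1.80 and IRF1 by 1.41 on the log2 scale. The interferon ligand genes were not analysed here. The 1 gene that fell was JAK1, a kinase of the receptors (log2 -0.28, named after its values were seen).

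All 17 genes of antigen presentation by MHC class I rose, by 0.54 to 3.28 on the log2 scale (median 1.70). B2M, the light chain of every class I molecule, stood at 471, 445 and 444 CPM in the scramble and 2212, 2309 and 2348 CPM in the knockdown libraries (log2 2.34 ± 0.05, adjusted p = 9.97e-17). HLA-C went from 224, 252 and 211 CPM to 1118, 1128 and 1102 CPM, and HLA-F from 29.3, 27.4 and 24.1 CPM to 186, 194 and 193 CPM. The heavy chain genes are close copies of each other, so the share of reads given to each is uncertain.

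Among 28 NF-kB targets and cytokines 13 rose and 0 fell (median 0.47). The largest rises were the T cell attractants CXCL10, from 0.53, 0.57 and 1.16 CPM to 38.5, 39.3 and 41.8 CPM (log2 5.53 ± 0.23), and CXCL11 (log2 4.59 ± 0.26), which are also interferon targets. BIRC3, an inhibitor of apoptosis, rose by 1.495 and SAA1, an acute phase protein, by 1.55 on the log2 scale. Scaled within the HMLE libraries, scramble and knockdown means of SAA1 were 30.9 and 26.9 CPM at day 2 and 7.63 and 23.2 CPM at day 4. Of 24 apoptosis regulators 12 rose and 0 fell (median 0.28), with 1 lower without scramble replicate 2. The initiator CASP10 went from 27.2, 29.6 and 28.9 CPM to 59.4, 61.3 and 56.6 CPM. The inflammatory caspases CASP1 and CASP4 rose by 0.96 and 0.49, and APAF1, which assembles the apoptosome, by 0.65 on the log2 scale.

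**Figure D3:**
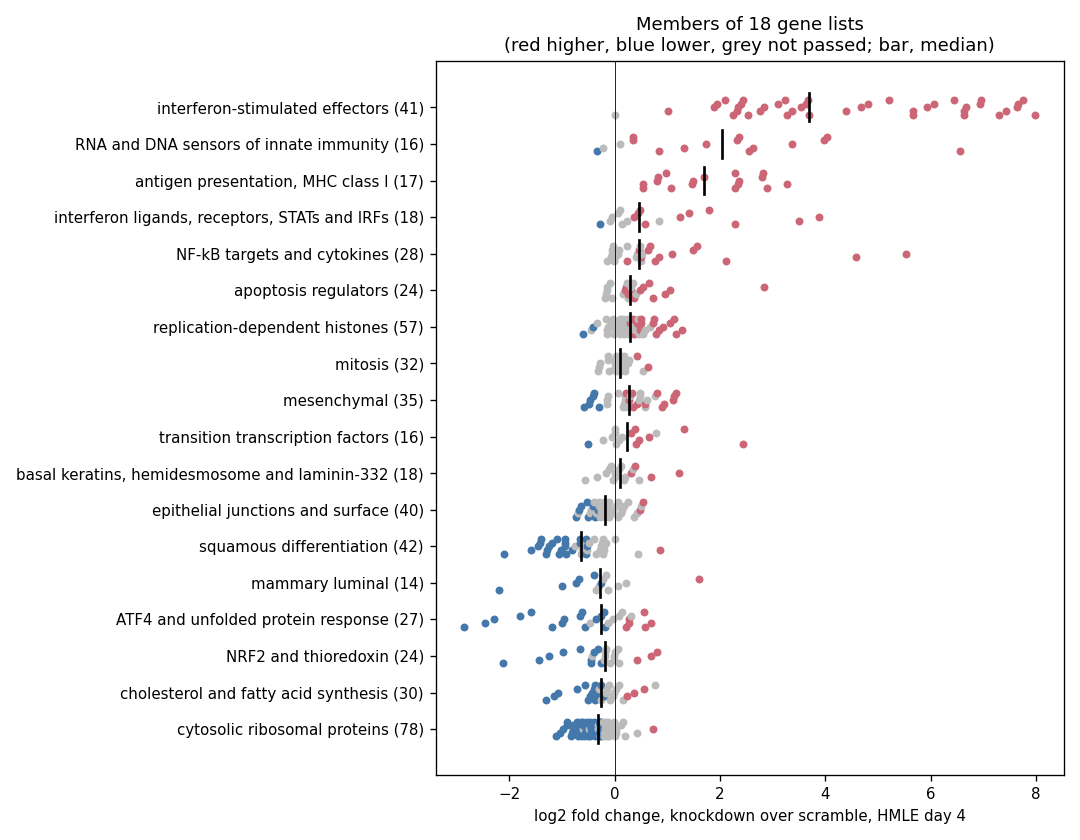
Log2 fold change of knockdown over scramble for each tested member of 18 gene lists, with the number of members in brackets. Red points rose, blue points fell, grey points did not pass, and black bars are list medians. The interferon-stimulated effectors have a median of 3.69 and the squamous differentiation genes the lowest median, -0.64.

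Among the 12 largest falls, FER1L6, a member of the ferlin family of membrane proteins, had 42.8, 44.4 and 56.2 CPM in the scramble libraries and 4.50, 4.78 and 8.87 CPM in the knockdown libraries (log2 -3.01 ± 0.30, adjusted p = 7.13e-07). KRT84, a hair-type keratin, had 333, 337 and 287 CPM against 39.1, 50.8 and 73.9 CPM (log2 -2.59 ± 0.29, adjusted p = 2.9e-05). The others were ASNS, STC2, PSAT1, SLC7A11, KRT1, SPINK7, SLC9A2, MMP1 and the annotated loci RP5-857K21.11 and hsa-mir-6723, with log2 fold changes of -1.84 to -2.47. Both loci are annotated beside nuclear copies of mitochondrial genes, so their reads may be shared with near-identical sequence and their values are uncertain. The call of RP5-857K21.11 was lost in the fit of 6 libraries (adjusted p = 0.0579, limma). SLC9A2, a sodium and proton exchanger, fell from 17.5, 17.3 and 17.3 CPM to 3.75, 4.44 and 5.53 CPM.

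Of the squamous differentiation genes 22 of 42 fell and 1 rose, with a median of -0.64. KRT1, a keratin of the suprabasal epidermis, had 999, 922 and 954 CPM in the scramble libraries and 171, 220 and 289 CPM in the knockdown libraries (log2 -2.11 ± 0.15, adjusted p = 1.14e-08). Its partner KRT10 went from 1889, 1472 and 1424 CPM to 457, 590 and 752 CPM (log2 -1.43 ± 0.18). DSG1, the desmosomal cadherin of differentiated layers, went from 635, 550 and 605 CPM to 159, 221 and 284 CPM, and SBSN, suprabasin, fell by 1.59 ± 0.21 on the log2 scale. No library of one group entered the range of the other in these 4 genes. The 1 gene that rose was RHCG, an ammonium transporter (log2 0.85, named after its values were seen), a call lost without scramble replicate 1 or 2 or knockdown replicate 2 or 3. The number of members that fell was 13 with a prior count of 0.5 and 35 with precision weights. The letters of the AP-1 site, TGA, any base and TCA on both strands, stood in 9 of 29 squamous promoters, beside 6.60% of all promoters. Among all genes that fell the share was 4.96%, and among genes that did not pass 4.34%. The NF-kB list, of which 0 fell, held the letters in 5 of 21 promoters, and a link of the letters to the falls was not tested.

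Of the junction and surface genes of epithelium 8 of 40 fell and 2 rose, with a median of -0.19. Over all genes tested 14.4% fell and 11.7% rose. DSP, desmoplakin, had 16260, 16310 and 16070 CPM in the scramble and 10300, 11570 and 11860 CPM in the knockdown libraries (log2 -0.53 ± 0.05, adjusted p = 4.27e-07). GRHL1, a transcription factor of epithelial barriers, fell by 0.51 and TJP1, a tight junction scaffold, by 0.31, while the desmosomal cadherin DSG2 rose by 0.47 on the log2 scale. The groups did not overlap for 27 of the 40, beside 36.3% of all genes tested. CDH1, E-cadherin, was at 646, 758 and 729 CPM against 628, 558 and 618 CPM without overlap. It did not pass in the fit of both lines (log2 -0.24 ± 0.26, adjusted p = 0.555, limma), but was lower in the fit of the 12 HMLE libraries (log2 -0.23 ± 0.07, adjusted p = 0.0118), in the fit of 6 libraries (0.0393) and with precision weights (0.00531). CDH1 had means of 0.07 and 0.18 CPM in the HMLE-TWIST1 scramble and knockdown libraries that share the first fit. EPCAM was at 20.9, 18.6 and 21.3 CPM against 26.8, 21.8 and 30.7 CPM without overlap, and it likewise did not pass in the fit of both lines (log2 0.37, adjusted p = 0.211) but was higher in the HMLE fit (log2 0.38 ± 0.10, adjusted p = 0.00668), in the fit of 6 libraries (0.0262) and with precision weights (0.0123). The count of junction genes that fell was 18 in the fit of the 6 libraries alone and 20 with precision weights, and 5 rose in each of these.

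Of the basal genes 4 of 18 rose and 0 fell, with a median of 0.10. The number that fell was 1 without scramble replicate 2 or knockdown replicate 3, and 7 rose and 2 fell with precision weights. KRT5, a keratin of basal cells, went from 2418, 2372 and 2024 CPM to 3527, 3721 and 3695 CPM (log2 0.69 ± 0.09, adjusted p = 3.4e-05). LAMA3, a chain of laminin-332, went from 453, 481 and 490 CPM to 1001, 1160 and 1167 CPM (log2 1.22 ± 0.09, adjusted p = 3.38e-08), and ITGA3, a subunit of its receptor, rose by 0.38. KRT14 overlapped between groups (adjusted p = 0.802), and TP63, the regulator of basal identity, was at 416, 454 and 415 CPM against 543, 572 and 524 CPM without overlap. TP63 did not pass in the fit of both lines (log2 0.35, adjusted p = 0.141) but was higher in the HMLE fit (log2 0.37 ± 0.06, adjusted p = 3.51e-05), in the fit of 6 libraries (0.000812), with precision weights (1.63e-05) and with a prior count of 5 (0.0286). Of 14 luminal genes 6 fell and 1 rose (median -0.28), beside 14.4% lower and 11.7% higher over all genes tested. PGR, the progesterone receptor, fell from 8.77, 7.07 and 7.25 CPM to 1.25, 1.31 and 2.28 CPM (log2 -2.19 ± 0.29). MUC1, a surface mucin, was the gene that rose, from 16.1, 20.8 and 17.7 CPM to 64.8, 59.3 and 44.2 CPM (log2 1.61 ± 0.13).

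Mesenchymal genes went both ways, with 12 of 35 higher and 6 lower (median 0.27), beside 11.7% and 14.4% over all genes tested. Of the 35, 29 passed the filter on reads within the 6 HMLE day 4 libraries. The others passed only with the HMLE-TWIST1 libraries added. THY1, a surface glycoprotein, rose from 10.98, 10.9 and 9.36 CPM to 21.3, 22.5 and 25.4 CPM (log2 1.14 ± 0.07). NT5E, an ectonucleotidase, rose by 0.90 and COL6A3, a collagen chain, by 1.16 on the log2 scale. The count of lower members was 3 without scramble replicate 1, and 3 with precision weights or in the fit of 6 libraries. VIM, vimentin, was low at 3.90, 1.87 and 3.57 CPM against 3.42, 3.39 and 3.69 CPM, and FN1, fibronectin, was at 2302, 2746 and 2532 CPM against 2211, 2711 and 3000 CPM. Neither passed (adjusted p = 0.503 and 0.732). CDH2, N-cadherin, was between 1.16 and 1.59 CPM in the scramble and 0.67 and 1.13 CPM in the knockdown libraries, and its fall (log2 -0.46, adjusted p = 0.0377) was lost without scramble replicate 1 or knockdown replicate 1. CDH2 also lost its call with the replicate block (0.0545), in the fit of 6 libraries (0.358), on the deposited log2 RPKM (0.0677), with precision weights (0.301) and with scaling by library totals (0.054).

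Factors that drive the epithelial to mesenchymal transition rose in 7 of 16 cases and fell in 1 (median 0.22). Of the 16, 12 passed the filter on reads within the 6 HMLE day 4 libraries. SNAI2 stood at 46.2, 51.5 and 51.2 CPM in the scramble and 75.9, 76.5 and 82.4 CPM in the knockdown libraries (log2 0.66 ± 0.06, adjusted p = 2.55e-07). ZEB2 went from 9.74, 8.45 and 7.99 CPM to 24.9, 21.4 and 20.02 CPM (log2 1.33 ± 0.09). Both lay apart between groups. At day 2 the means of ZEB2, scaled within the HMLE libraries, were 63.59 CPM in scramble and 62.15 CPM in knockdown. At day 4 they were 7.999 and 20.46 CPM on the same scale. Those of SNAI2 were 76.74 and 73.36 CPM at day 2 and 45.5 and 72.39 CPM at day 4. For each of these genes the day 4 scramble mean was the lowest, and the step between days was not tested. Neither passed at day 2 (adjusted p = 0.839 for ZEB2 and 0.513 for SNAI2, limma). ZEB1 overlapped between groups (log2 0.40, adjusted p = 0.0228), a call lost without scramble replicate 2 or 3 or knockdown replicate 1 or 3, in the fit of 6 libraries (0.182), with all 24 duplex libraries (0.206) and with precision weights (0.157). TWIST1 did not pass (adjusted p = 0.259).

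Of 27 genes under ATF4, the factor of the integrated stress response, or of the unfolded protein response, 15 fell and 6 rose (median -0.26). ASNS, asparagine synthetase, had 71.0, 121 and 172 CPM in the scramble libraries and 20.9, 20.1 and 20.3 CPM in the knockdown libraries (log2 -2.47 ± 0.30, adjusted p = 0.000398). PSAT1, of serine synthesis, went from 74.4, 122 and 182 CPM to 28.1, 21.0 and 23.8 CPM, and SLC7A1, a transporter of cationic amino acids, fell by 0.62. SLC7A11, the cystine transporter, went from 100.0, 150 and 192 CPM to 37.0, 29.2 and 31.9 CPM (log2 -2.12 ± 0.26). Scramble replicate 1 was the lowest of its group in each of ASNS, PSAT1 and SLC7A11, yet still above all knockdown libraries. The calls of these 3 genes held when any 1 of the 6 libraries was left out. CALR, calreticulin, rose from 1202, 1186 and 1189 CPM to 1660, 1789 and 1881 CPM (log2 0.57 ± 0.05), and PDIA4, a disulfide isomerase, by 0.55.

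The list of NRF2 and thioredoxin genes, which counter oxidants and hold SLC7A11, had 10 of 24 lower and 3 higher (median -0.19). FTH1, the ferritin heavy chain, rose from 995, 951 and 1074 CPM to 1632, 1750 and 1482 CPM, TXNRD1, thioredoxin reductase, rose by 0.42 and TALDO1, of the pentose phosphate pathway, fell by 0.39 on the log2 scale. Scaled within the HMLE libraries, scramble and knockdown means of FTH1 were 1660 and 1212 CPM at day 2 and 923 and 1500 CPM at day 4. Of 30 genes of lipid synthesis 15 fell and 3 rose (median -0.26). ACACA, which makes malonyl-CoA, had 278, 297 and 275 CPM in the scramble and 142, 125 and 138 CPM in the knockdown libraries (log2 -1.07 ± 0.06, adjusted p = 2.48e-10). SCD, the stearoyl-CoA desaturase, went from 1092, 1015 and 783 CPM to 426, 415 and 443 CPM (log2 -1.16 ± 0.11), and TM7SF2, a sterol reductase, fell by 1.30.

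Of the 78 genes for cytosolic ribosomal proteins 47 fell and 1 rose, with a median of -0.31. Their summed level was 14260 to 15180 CPM in the scramble and 9867 to 10600 CPM in the knockdown libraries. RPLP0 went from 345, 308 and 349 CPM to 162, 135 and 165 CPM (log2 -1.12 ± 0.07, adjusted p = 2.72e-09), RPL3 from 610, 583 and 639 CPM to 299, 283 and 303 CPM, and RPL4 from 989, 932 and 917 CPM to 503, 479 and 462 CPM. The groups lay apart for 49 of the 78, beside 36.3% of all genes tested. The gene that rose was RPS10 (log2 0.72, named after its values were seen), and this call was lost without scramble replicate 3 or knockdown replicate 2 or 3. Ribosomal protein genes have many processed pseudogenes, so their reads may be split between copies.

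Few cell division genes passed the test. Of 32 mitosis genes 2 rose and 0 fell (median 0.10), namely AURKB and FOXM1, and neither held in the fit of 6 libraries. The number that rose was 5 without scramble replicate 1 or knockdown replicate 3 and 1 without scramble replicate 3 or knockdown replicate 1. The number that fell was 3 without knockdown replicate 1 and 1 without scramble replicate 2. DNA replication genes had 6 of 36 higher and 2 lower (median 0.05), beside 11.7% higher and 14.4% lower over all genes tested. RRM1, a subunit of ribonucleotide reductase, fell from 288, 284 and 279 CPM to 165, 180 and 189 CPM. Replication-dependent histone genes had 17 of 57 higher and 2 lower (median 0.30), and 45 of the 57 passed the filter on reads within the 6 HMLE day 4 libraries. Among those that rose were HIST1H2BJ (log2 1.17) and HIST2H2BE (log2 0.75). Fewer rose, 11, without knockdown replicate 1, and 9 rose with precision weights or in the fit of 6 libraries. The number that fell was 0 or 1 in each omission of 1 library other than knockdown replicate 1. These genes are close copies of each other and their reads may be split.

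Of 26 p53 targets 7 fell and 2 rose (median -0.10), beside 14.4% lower and 11.7% higher over all genes tested. CDKN1A, the p21 inhibitor of cyclin-dependent kinases, went from 1175, 1278 and 1315 CPM to 815, 828 and 958 CPM (log2 -0.54 ± 0.06, adjusted p = 6.16e-06), and ZMAT3, an RNA-binding target of p53, fell by 0.68. The death receptor FAS rose by 0.72 ± 0.09. The count that fell was 4 without scramble replicate 3, without knockdown replicate 1 or when libraries were scaled by their totals, and 1 rose without scramble replicate 1 or 2. Among 19 cell cycle inhibitors and senescence genes 3 rose and 5 fell. The collagenase MMP1 fell from 18.5, 18.3 and 20.3 CPM to 3.67, 4.96 and 7.73 CPM.

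Writers and readers of H3K9 methylation other than the targets had 4 of 27 higher and 2 lower (median 0.08). Over all genes tested the shares were 11.7% higher and 14.4% lower. CBX5, which encodes HP1 alpha, went from 407, 426 and 389 CPM to 219, 192 and 197 CPM (log2 -1.01 ± 0.05, adjusted p = 1.55e-10). CBX1 and CBX3, for HP1 beta and gamma, rose by 0.40 and 0.30 on the log2 scale. The 3 HP1 genes thus moved in different directions, each with groups that lay apart. TRIM28, a corepressor that recruits H3K9 methylation, was the other gene that fell (log2 -0.24, named after its values were seen), and 1 gene fell without knockdown replicate 2. Of 12 H3K9 demethylases 3 rose and 1 fell: KDM4D rose by 1.21 ± 0.22 from a low level of 1.30 to 1.68 CPM, KDM1A by 0.33 and PHF2 by 0.23, and KDM1B fell by 0.51. The PHF2 call was lost without knockdown replicate 1, and 2 demethylases fell without knockdown replicate 3.

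EGF receptor ligands and feedback genes fell in 8 of 20 cases and rose in 1 (median -0.21), with 5 lower without knockdown replicate 2 and 0 higher without scramble replicate 1 or 2 or knockdown replicate 3. EREG, epiregulin, went from 15.9, 21.0 and 23.6 CPM to 9.34, 9.05 and 10.5 CPM (log2 -1.04 ± 0.16), and SPRY4, a brake on the pathway, fell by 1.503. Among 22 immediate early genes 6 rose and 5 fell, and both counts were 3 without scramble replicate 1 or without knockdown replicate 2. MYC rose from 103, 102 and 103 CPM to 200, 187 and 174 CPM (log2 0.87 ± 0.07, adjusted p = 4.62e-08), and JUN by 0.46. Scaled within the HMLE libraries, scramble and knockdown means of MYC were 184.5 and 198 CPM at day 2 and 93.8 and 173 CPM at day 4. Those of JUN were 182 and 120 CPM at day 2 and 101 and 141 CPM at day 4.

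At day 2 the same line had 2286 genes higher (13.7% of 16716 tested) and 2478 lower (14.8%). No library is shared between the days. On both days 834 genes rose, which is 39.6% of all 2107 day 4 rises. It is 36.6% of the 2279 day 2 rises among genes also tested in the day 4 fit. On both days 970 genes fell, which is 37.4% of all 2593 day 4 falls and 39.5% of the 2454 such day 2 falls. Across 15739 genes the log2 fold changes of the 2 days had a Pearson correlation of 0.60, and 0.47 without genes past 3, as a description over genes that are not independent. The difference between days was itself tested in 1 fit of the 12 HMLE libraries: 1505 genes had a more positive change at day 4 (9% of 16716) and 1448 a more negative one (8.66%).

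The interferon-stimulated effectors rose further at day 4. Of 40 interferon-stimulated effectors tested at both days, 39 rose at day 2 with a median of 2.67, and 32 had a larger change at day 4 with 0 smaller. IFI6, scaled within the HMLE libraries, had a mean of 11.4 CPM in scramble and 211 CPM in knockdown at day 2, against 5.95 and 1320 CPM at day 4 (difference of log2 fold changes 3.58 ± 0.16, adjusted p = 7.73e-10). Antigen presentation differed in the same direction for 14 of 17 genes. SERPING1, the C1 inhibitor of complement, was at 2.74 against 3.89 CPM at day 2 and 2.66 against 29.0 CPM at day 4 (difference 2.90 ± 0.24, adjusted p = 2.65e-08).

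Levels at both days are set side by side for ASNS, and day 4 against day 2 was not tested within the scramble libraries. ASNS had 17.9, 17.1 and 17.9 CPM in the day 2 scramble libraries, 27.8, 24.04 and 26.03 CPM in the day 2 knockdown, 65.1, 110 and 158 CPM in the day 4 scramble and 19.5, 18.7 and 18.6 CPM in the day 4 knockdown libraries. The day 4 knockdown libraries lay between the day 2 scramble and day 2 knockdown libraries, and the day 4 scramble libraries lay above all the others. The knockdown effect differed between days by -3.01 ± 0.37 (log2, adjusted p = 0.000738). PSAT1, STC2, SLC7A11 and TRIB3, a pseudokinase induced by ATF4, gave differences of -2.05 to -2.79, and their mean day 4 scramble level was also above both day 2 groups.

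Of 42 squamous genes 38 fell at day 2 (median -1.16), and the change at day 4 was more positive for 21 and more negative for 0. KRT1 had means of 144 CPM in scramble and 12.9 CPM in knockdown at day 2, and 879 and 210 CPM at day 4. Its level thus was higher at day 4 than at day 2 in both kinds of library, a step that was not tested. Of 18 basal genes 16 fell at day 2, and 15 had a more positive change at day 4. KRT5 fell at day 2 (log2 -0.69, adjusted p = 1.78e-08) from a mean of 5857 to 3647 CPM, while at day 4 it rose from 2082 to 3374 CPM on the same scale. The day 4 scramble cells had the lowest KRT5 of the 4 groups. Ribosomal protein genes had 3 of 78 lower at day 2 (median 0.04), and 48 differed downward at day 4.

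**Figure D4:**
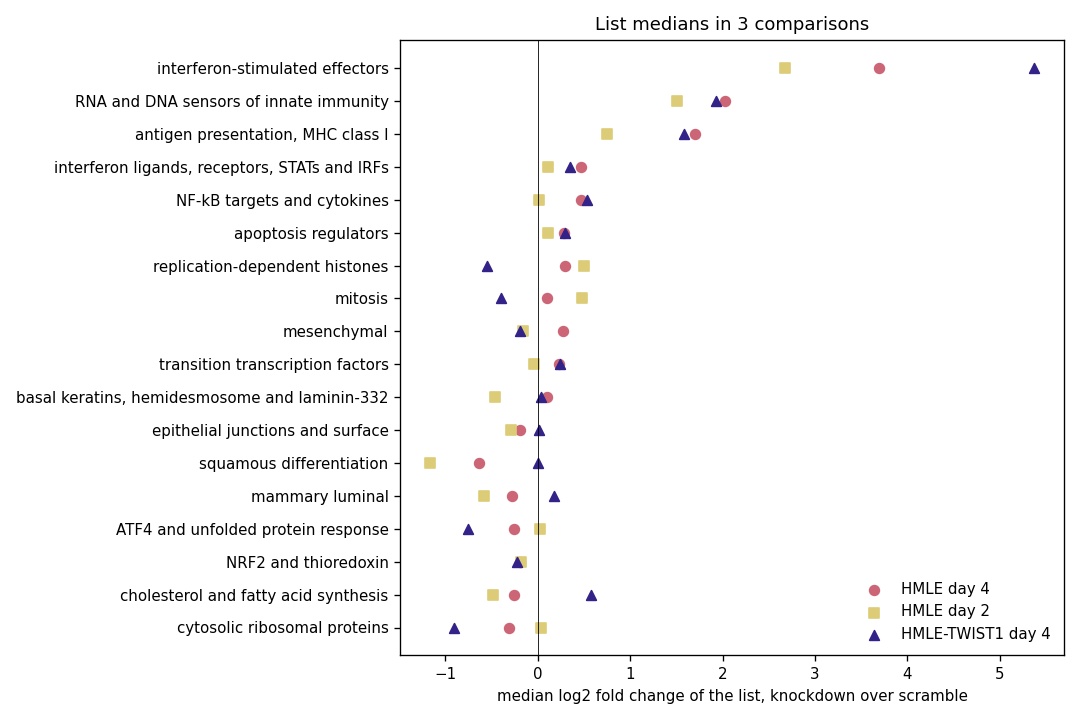
Median log2 fold change of knockdown over scramble for 18 gene lists (rows) in HMLE at day 4 (red circles), HMLE at day 2 (yellow squares) and HMLE-TWIST1 at day 4 (blue triangles). The 3 comparisons share no libraries. The interferon-stimulated effectors stand at 2.67, 3.69 and 5.37 in HMLE day 2, HMLE day 4 and HMLE-TWIST1 day 4, and ribosomal proteins at 0.04, -0.31 and -0.91.

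In HMLE-TWIST1 cells at day 4, 3420 genes rose (19% of 17985) and 3412 fell (19%). Of the HMLE day 4 rises 1043 also rose there, which is 49.5% of the HMLE rises and 30.5% of the HMLE-TWIST1 rises, and 1264 fell in both, which is 48.7% and 37.0%. The correlation across genes was 0.58, and 0.42 without genes past 3. In the test of the difference between lines, 1925 genes had a more positive change in HMLE (10.7%) and 2186 a more negative one (12.2%). Levels before knockdown differ between these lines, so a difference of fold changes also carries the difference in scramble level.

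The interferon-stimulated effectors rose in both lines, 40 of 41 in HMLE and 41 of 41 in HMLE-TWIST1, with 24 changes smaller and 8 larger in HMLE. Of the 41, 40 passed the filter on reads within the 6 HMLE libraries. CMPK2, with 0 reads there, was tested only through its reads in HMLE-TWIST1, so it says nothing about a difference between lines. RSAD2 had 0.97, 1.71 and 2.73 CPM in scramble and 152, 184 and 211 CPM in knockdown HMLE libraries, beside means of 0.28 and 408 CPM in HMLE-TWIST1 (difference -3.28 ± 0.43, adjusted p = 0.000439). LAMP3, a lysosomal membrane protein of mature dendritic cells, went the other way, from 4.61, 5.28 and 4.63 CPM to 151, 169 and 162 CPM in HMLE and from a mean of 6.05 to 15.7 CPM in HMLE-TWIST1 (difference 3.66 ± 0.14, adjusted p = 2.07e-11). APOBEC3A, a cytidine deaminase, rose in HMLE from 12.6, 13.8 and 10.9 CPM to 58.0, 83.6 and 61.3 CPM and had 0 reads in all 6 HMLE-TWIST1 libraries.

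Calls in some groups went in opposite directions in these lines. Of the lipid synthesis genes 15 fell in HMLE, 22 of 30 rose in HMLE-TWIST1, and 24 had a more negative change in HMLE. SCD fell in HMLE and rose in HMLE-TWIST1 from a mean of 211 to 298 CPM. Replication-dependent histones had 17 higher in HMLE and 37 of 57 lower in HMLE-TWIST1, and 38 had a more positive change in HMLE. Mesenchymal genes were lower in HMLE-TWIST1 in 15 of 35 cases, and 17 had a more positive change in HMLE. Only 45 of the 57 histone and 29 of the 35 mesenchymal genes passed the filter on reads within the 6 HMLE libraries. For the others the difference between lines rests mainly on HMLE-TWIST1. SNAI2 rose in HMLE but fell in HMLE-TWIST1 (log2 -0.21, adjusted p = 0.00966). Of 78 ribosomal protein genes 47 fell in HMLE and 71 in HMLE-TWIST1, and 58 had a more positive change in HMLE.

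**Figure D5:**
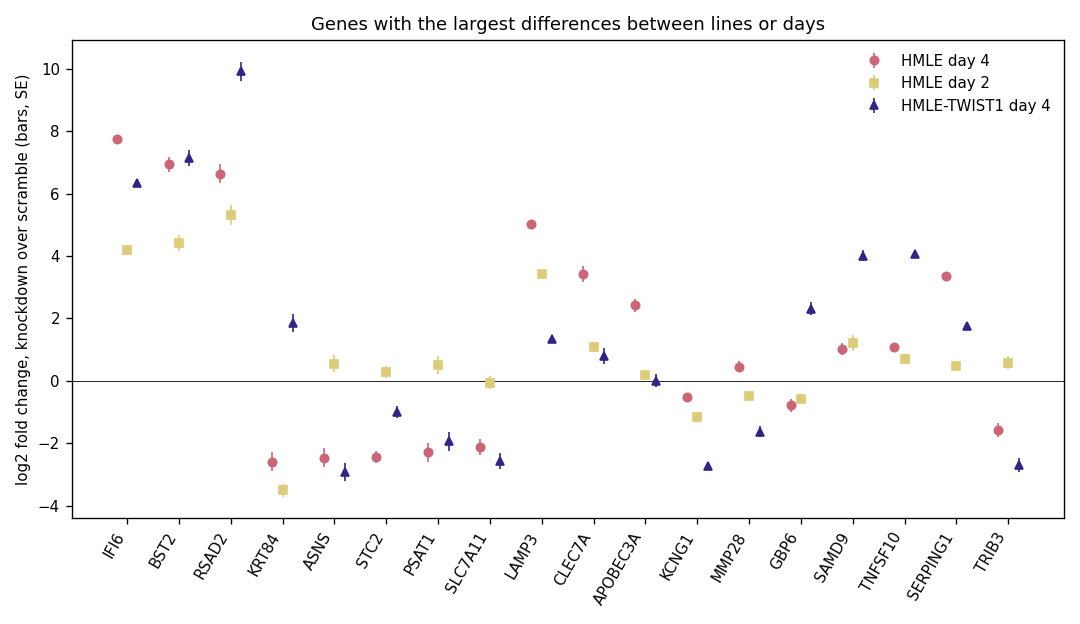
Log2 fold change of knockdown over scramble with its SE for the 18 genes with the largest differences between lines or days, in HMLE day 4 (red circles), HMLE day 2 (yellow squares) and HMLE-TWIST1 day 4 (blue triangles). IFI6 stands at 7.75 in HMLE day 4 and 4.18 in HMLE day 2, and ASNS at -2.47 in HMLE day 4 and 0.55 in HMLE day 2.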

How the data were processed

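The authors deposited log2 RPKM per gene. The submitters' processing notes name STAR, HTSeq and hg19 (GRCh37), and versions are not given in the sources used here. Per the labels' protocols, the kit keeps strand and removes rRNA. A count table with 81 unnamed columns was not used. All values of the 24 duplex libraries (19777 genes) lay within 0.001 of whole reads (100% of values), so whole reads were recovered and tested. A gene needed the equivalent of 10 reads in 3 of the 12 day 4 libraries and 15 in all, and 1792 did not pass. Scaling used trimmed means (30% of log ratios, 5% of levels). Log2 CPM with a prior count of 2 were fitted with limma 3.58.1 (R 4.3.3, statmod 1.5.0, trend and robust) over 4 groups of 3, with Benjamini-Hochberg adjustment, and printed CPM use the same scaling. Days were compared in a fit of the 12 HMLE libraries. The day 4 fit was also run on simulated counts, which gave both lines the same starting mean for each gene. Genes close to silent in HMLE or in HMLE-TWIST1 were thus not covered.

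The members and the 34 gene lists were chosen with earlier results of these data known. Genes were named by fixed rules: both targets, 11 markers, the 12 largest rises and falls (adjusted p under 0.05, no overlap, mean log2 CPM at least 3), at most 4 per list by smallest adjusted p, and 5 differences in each direction for lines and for days. Those differences were taken among genes whose difference had an adjusted p under 0.05, with the same overlap and level rule in HMLE day 4. Exceptions are marked in the text. Some genes that these rules pick are not reported here. Alternatives covered library sets, scaling, filters, prior counts, weights, moderation, the deposited log2 RPKM and each library left out.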

Additional observations from a re-analysis of the deposited data

Results flagged for a closer look

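For the largest differences of the day 4 knockdown effect between HMLE and HMLE-TWIST1, 10 genes were named. They were taken from genes past an adjusted p of 0.05 (limma interaction term), so passing was fixed by the rule. The rule also asked for groups without overlap and a mean log2 CPM of at least 3 in HMLE day 4. On the log2 scale, HMLE minus HMLE-TWIST1, the difference was positive for LAMP3 (3.66), CLEC7A (2.64), APOBEC3A (2.42), KCNG1 (2.20) and MMP28 (2.08). It was negative for KRT84 (-4.44), RSAD2 (-3.28), GBP6 (-3.09), SAMD9 (-3.00) and TNFSF10 (-2.96). Several of these genes were close to 0 in one line: mean scramble and knockdown levels in HMLE-TWIST1 were 0 and 0.11 CPM for CLEC7A, 0.12 and 0.77 CPM for KRT84, and 0.07 and 0.94 CPM for GBP6. APOBEC3A was at 0 CPM in both of these groups. KCNG1 means were lower with knockdown in both lines, at 59.0 and 8.83 CPM in HMLE-TWIST1. In HMLE, scaled within the HMLE libraries, they were 16.6 and 11.6 CPM. The positive difference of KCNG1 was thus a smaller fall in HMLE.

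By the same rule between days in HMLE, day 4 minus day 2, the difference was positive for IFI6 (3.58), SERPING1 (2.90), BST2 (2.52), CLEC7A (2.35) and APOBEC3A (2.24). It was negative for ASNS (-3.01), PSAT1 (-2.79), STC2 (-2.70), TRIB3 (-2.15) and SLC7A11 (-2.05). CLEC7A, a receptor of fungal glucans, had means of 10.9 and 23.2 CPM in scramble and knockdown at day 2 and of 2.42 and 26.9 CPM at day 4, so the scramble level at day 4 was the lowest of the 4 means.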

How the results depend on the processing

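Counts over all genes stayed within 1.5 times in all 18 alternatives, at 1779 to 2350 higher and 2055 to 2867 lower. Of 2876 alternatives for single genes 2811 kept call and direction, as did all 200 for the differences between lines and days, and 1127 of 1224 for list counts stayed within 1.5 times. The cause of the other changes was not tested. SUV39H1 gave -0.87 and SUV39H2 -0.481 (log2) with only the 6 libraries, and SUV39H1 ranged from -1.218 to -0.702 with 1 library left out. FN1, not called, was -0.009 without scramble replicate 1 and -0.042 without knockdown replicate 3, with 0.179 as its highest such value, and VIM, not called, ranged from -0.09 without scramble replicate 2 to 0.411 without scramble replicate 1. Few reads limit SUV39H1 and other low genes.

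With only the 6 libraries, H3K9 writers lower were 1, mitosis higher 0, histones higher 9 and lower 0, junctions higher 5 and lower 18, basal lower 2, mesenchymal lower 3, ribosomal higher 0, HOX higher 1 and adipocyte lower 1. With all 24 duplex libraries, sensors lower were 2, DNA replication lower 4, EGF higher 0, and HOX higher 5 and lower 1. With precision weights, demethylases lower were 2, sensors lower 2, mitosis higher 0, histones higher 9 and lower 0, apoptosis lower 1, junctions higher 5 and lower 20, basal higher 7 and lower 2, squamous higher 2 and lower 35, mesenchymal lower 3, ribosomal higher 0, HOX lower 1, leukocyte higher 0 and adipocyte lower 1. Scaling by library totals gave H3K9 writers lower 1, mitosis higher 4, histones lower 1, p53 lower 4 and TGF-beta lower 3. The deposited log2 RPKM gave leukocyte higher 0, as did a filter of 30 reads, which also gave endothelial higher 0. A prior count of 0.5 gave squamous higher 0 and lower 13, leukocyte higher 0 and endothelial lower 0, and a prior count of 5 gave junctions higher 4, basal lower 2 and adipocyte lower 1.

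With 1 library left out, ranges were 1 to 3 for H3K9 writers lower, 1 to 2 for demethylases lower, 1 to 5 for mitosis higher and 0 to 3 lower, 11 to 19 for histones higher and 0 to 2 lower, 1 to 3 for p53 higher and 4 to 9 lower, 0 to 1 for apoptosis lower, basal lower, squamous higher, EGF higher, ribosomal higher, HOX lower and leukocyte higher, 3 to 6 for mesenchymal lower, 2 to 6 for TGF-beta lower, 5 to 8 for EGF lower, 3 to 5 for immediate early higher and 3 to 4 lower, and 0 to 3 for HOX higher.

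With the replicate number as a block, 2027 genes were higher and 2505 lower, ribosomal higher was 0 and adipocyte lower 1, and of the named calls only CDH2 was lost. Same-numbered libraries deviated together at correlations of 0.019, 0.012 and 0.181, and 2 of 6 libraries correlated best with their own number, so the numbers were not taken as pairs.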

Other observations

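The following counts stand beside 11.7% higher and 14.4% lower over all genes tested. TGF-beta and activin genes had 4 of 26 higher and 5 lower (median -0.14): SMAD3 rose by 0.36, TGFBR2 by 0.29 and INHBA, an activin subunit, by 0.37, while SMAD2 fell by 0.34 on the log2 scale. The count that fell was 2 without knockdown replicate 1 and 3 without knockdown replicate 2. Heat shock genes had 5 of 20 higher and 3 lower, with the co-chaperone DNAJA1 up by 0.66 and HSPA4 down by 0.37. Of 23 glycolysis and hypoxia genes 8 rose and 5 fell: BNIP3, of mitophagy, rose from 52.8, 46.3 and 48.9 CPM to 77.8, 71.2 and 80.6 CPM, and ALDOC fell from 71.0, 64.4 and 51.9 CPM to 31.9, 40.8 and 37.9 CPM.

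RNA interference genes had 3 of 13 higher and 2 lower, with AGO4 up by 0.54 and AGO1 and AGO3 down by 0.30 each. Germline genes, of which 6 could be tested and 3 passed the filter on reads within the 6 HMLE libraries, had 0 calls in either direction. HOX genes had 2 of 26 higher, HOXB4 and HOXB6, and 0 rose without scramble replicate 3 and 1 without knockdown replicate 2. Of the 26, 17 passed the filter on reads within the 6 HMLE libraries. In the same list 1 fell without scramble replicate 1 or knockdown replicate 1. The wider marker lists had 1 of 3 leukocyte genes higher (CD68, a call lost without scramble replicate 1 or 3 or knockdown replicate 2 or 3), 1 of 4 endothelial genes higher (ERG) and 1 lower (VWF), and 0 of 5 adipocyte genes in either direction. Only 2 of these leukocyte, 3 of the endothelial and 2 of the adipocyte genes passed the filter on reads within the 6 HMLE libraries.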
